A study of Mus with 9 samples.

Results

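The mitochondrial ribosomal proteins were taken as the protein-coding genes whose symbol begins with Mrpl or Mrps followed by a digit, which gave 78 of the 54532 genes in the kidney count table. Of these, 49 carry the name of the large subunit (Mrpl) and 29 the name of the small subunit (Mrps). The rule uses gene names and gene type. Kidney RNA of 9 male C57BL/6 mice was sequenced, with 3 mice and 1 library per mouse in each group. Every mouse had lost 1 kidney by surgery at the age of 18 months. The 18 mo mice were killed 1 week after the surgery and are the comparator of the older groups. The 21 mo mice received intraperitoneal saline for 12 weeks after the surgery, and the 21 mo/O304 mice received O304, an activator of the energy-sensing kinase AMPK, at 10 mg/kg/day for the same 12 weeks. Age, time after surgery and injections therefore cannot be told apart in either comparison with the 18 mo mice, whereas 21 mo/O304 and 21 mo mice differed in the drug. No mouse with both kidneys in place was among these.

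Mitochondria carry their own ribosome, the mitoribosome, which translates the few proteins still encoded by mitochondrial DNA, all of them subunits of the respiratory chain and ATP synthase. Its ribosomal RNAs come from the mitochondrial chromosome, but every one of its proteins is encoded in the nucleus, made on cytosolic ribosomes and imported. Part of these proteins descend from bacterial ribosomal proteins and the others were acquired by mitochondria, and the kidney, whose proximal tubule depends on respiration, needs both sets to make its respiratory chain.

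Library totals ranged from 15636378 to 18396725 counts. Over all genes the biological coefficient of variation came to 18.1% among 18 mo mice, 44.2% among 21 mo mice and 20.6% among 21 mo/O304 mice. The 21 mo mice therefore varied most, and their libraries stood apart from each other in cell type markers. The 11 markers of the proximal tubule, the main epithelium of the kidney cortex, summed to between 16618 and 19606 CPM, the counts scaled to a common library size, in the 18 mo libraries and to between 16179 and 17580 CPM in the 21 mo/O304 libraries. In the 21 mo libraries the sum was 16223 CPM in replicate 1, 9513 CPM in replicate 2 and 2705 CPM in replicate 3. All 11 were detected in every library. Marker sums, here and below, were scaled by the library total alone, without the further factor used for the CPM of single genes. The 6 fibroblast markers summed to 1567 CPM and the 6 macrophage markers to 1651 CPM in 21 mo replicate 3, against at most 241 and 328 CPM in the 18 mo libraries. The 6 adipocyte markers summed to 140 and 114 CPM in 21 mo/O304 replicates 1 and 3 and to at most 9.7 CPM elsewhere.

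The members were expressed at moderate to high levels. Their mean deposited FPKM, a level per transcript length, ranged from 0 to 119 with a median of 17.1, and the median member had a mean CPM above that of 72.6% of the genes tested. The highest levels per length were those of Mrpl34, a large-subunit protein shared with bacteria (FPKM 119), Mrps21, a small-subunit protein shared with bacteria (FPKM 115), and Mrpl12, which forms the stalk that recruits translation factors to the large subunit (FPKM 77.8). Among the members with counts, the lowest were Mrps10 (FPKM 3.25) and Mrps30 (FPKM 3.42). Mrpl53 (chr6:83109040-83109939, GRCm38) was listed at 0 in all 9 libraries and is the member that failed the filter on low counts, so 77 members were tested. Its annotated interval lies inside that of Gm42688 on the same strand, and Gm42688 itself held between 3 and 14 counts per library. The members lie on 17 chromosomes. In all, 41 overlap another annotated gene, 13 of them on the same strand, counted from the start and end of each gene with introns included. Whether such pairs share exons was not examined, so how far the assignment of their reads was uncertain is not known.

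The first comparison asked what differed in the kidney of 21 mo mice from that of 18 mo mice. The members were lower as a group of genes, by a small amount and in unequal degree. Of the 77 members tested, 63 had a lower fitted level in 21 mo mice and 14 a higher one, and the median log2 fold change was −0.31, against 0.03 over the 15902 genes tested. No single member passed an adjusted p of 0.05 in edgeR's quasi-likelihood test, where the share of all genes that passed was 0% lower and 0.0189% higher. The smallest adjusted p of a member was 0.063. At an unadjusted p under 0.05 the edgeR test gave 34 members lower and 2 higher, that is 44.2% and 2.60% of the members, against 12% and 14% of all genes tested. In 40 members every 21 mo library lay below every 18 mo library, and in 3 every one lay above, where all genes tested gave 15.3% and 13.5%. DESeq2 called 26 members, all lower, while 12.3% of the genes to which it gave an adjusted p were called. limma-voom with sample weights called 47 lower and 3 higher, with 52.9% of all genes called, and limma-trend on FPKM called 0.

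By library, the median member stood at −0.04, 0.10 and −0.06 on the log2 scale relative to the 18 mo mean in the 18 mo libraries. It stood at −0.14, −0.29 and −0.44 in 21 mo replicates 1, 2 and 3, and at −0.11, −0.24 and −0.05 in 21 mo/O304 replicates 1, 2 and 3. All 3 medians of the 21 mo group were thus below those of the 18 mo group, with replicate 3 the lowest. The number of members below every 18 mo library was 43, 56 and 62 in the 21 mo libraries, where the share of all genes tested was 33.4%, 36.1% and 40.5%. It was 41, 49 and 34 in the 21 mo/O304 libraries, with 30.4%, 32.5% and 31.3% of all genes. The lowest value of all 9 libraries was in 21 mo replicate 3 for 38 members and in 21 mo replicate 2 for 18, against 28.9% and 8.96% of all genes tested.

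**Figure D1:**
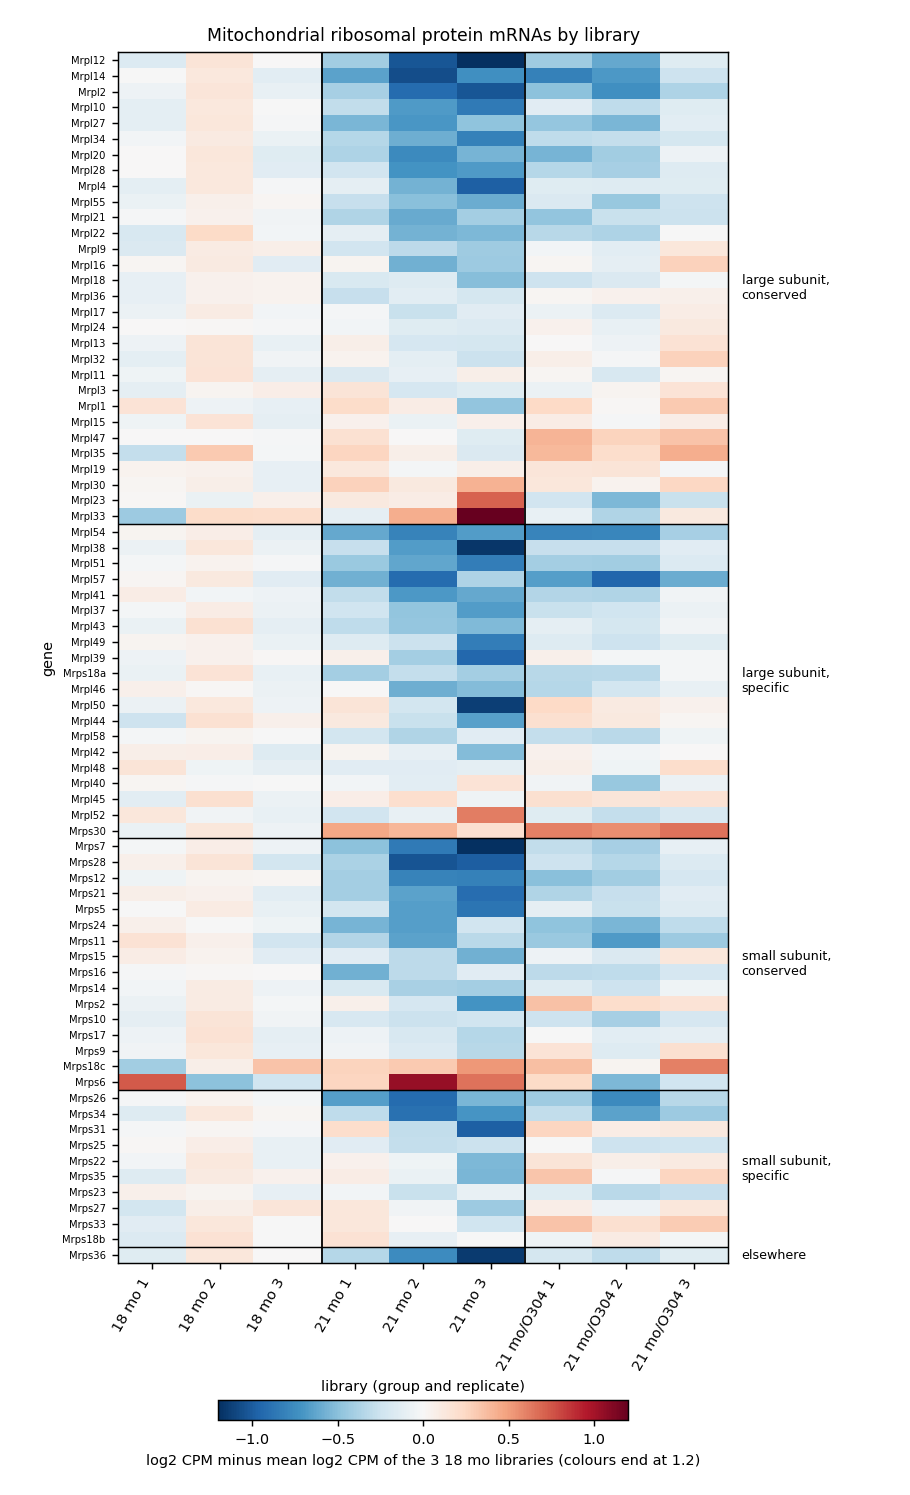
Level of each of the 77 tested members (rows, grouped by subunit and origin) in each library (columns), as log2 CPM minus the mean log2 CPM of the 18 mo libraries, with blue lower and red higher. Blue prevails in the 21 mo columns and is deepest in replicates 2 and 3, while Mrps30, Mrpl33 and Mrps6 are among the few rows that turn red there.

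With the scaling used for single genes, the order of the 21 mo libraries in the members was also that of the proximal tubule markers. These markers were near the 18 mo level in replicate 1 and lowest in replicate 3. As a share of the library total, the summed members ran the other way, at 0.336%, 0.347% and 0.355% in replicates 1, 2 and 3. In a bulk tissue sample, fewer cells of a type and less RNA per cell cannot be told apart, and the part of cell composition in the result was not tested. In 21 mo replicate 1, whose median proximal tubule marker was 0.16 above the 18 mo mean on the log2 scale, 43 members were below every 18 mo library, with 33.4% of all genes. Other markers differed in that library, with medians of −0.81 for fibroblast, 0.63 for macrophage and 2.63 for neutrophil markers on the same scale, and their part was not tested. Members with every 21 mo library below every 18 mo library numbered 40, with 15.3% of all genes. Without 21 mo replicate 3 this count was 41, with 20.2% of all genes, and the median log2 fold change was −0.23. With fewer libraries the condition is easier to meet. Without replicate 1 that count was 54, with 27.3% of all genes, and 32 members passed an adjusted p of 0.05 in edgeR, with 25.4% of all genes passing.

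**Figure D2:**
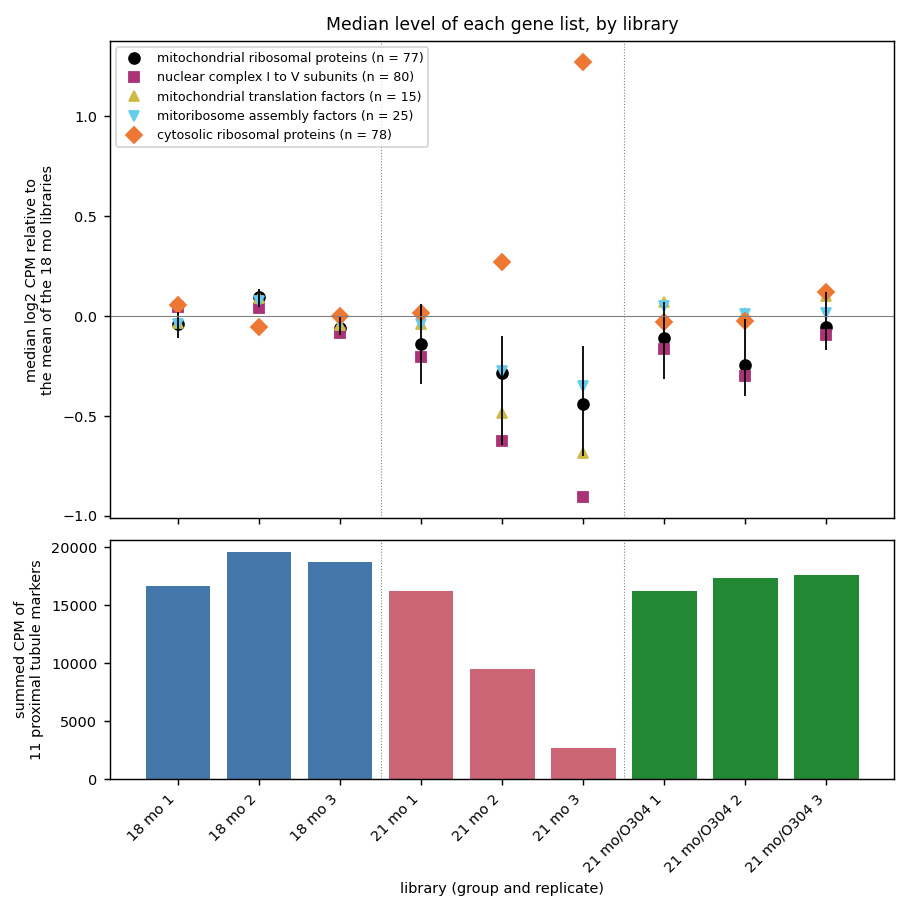
Upper panel, median log2 CPM of 5 gene lists in each library relative to the mean of the 18 mo libraries, with vertical lines for the interquartile range of the mitochondrial ribosomal proteins. Lower panel, summed CPM of the 11 proximal tubule markers, scaled by the library total alone, where 21 mo replicate 3 holds 2705 CPM. The cytosolic ribosomal proteins are highest in the same library.

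Among the large-subunit proteins inherited from bacteria, 23 of 30 were lower in 21 mo mice and the median log2 fold change was −0.24. Mrpl12 (chr11:120484613-120489065) had 142, 177 and 160 CPM in the 18 mo libraries, 119, 77.9 and 64.5 CPM in the 21 mo libraries and 118, 104 and 144 CPM in the 21 mo/O304 libraries. Every 21 mo value was below every 18 mo value, and the 21 mo/O304 values overlapped both groups. The log2 fold change of Mrpl12 in 21 mo against 18 mo was −0.87 ± 0.23 (SE, n = 3 and 3, edgeR adjusted p = 0.081), the lowest fitted value of any member. Mrpl14, which lies at the face where the subunits meet (chr17:45686322-45698495), had 67.5, 73.9 and 62.2 CPM in the 18 mo libraries and 43.4, 32.3 and 40.7 CPM in the 21 mo libraries. The groups did not overlap, at a log2 fold change of −0.81 ± 0.17 (edgeR adjusted p = 0.063). Mrpl34 (chr8:71464959-71465747) had a mean of 89.6 ± 6.27 CPM in 18 mo mice and 60.3 ± 9.66 CPM in 21 mo mice (SD, n = 3), with a log2 fold change of −0.57 ± 0.13 (edgeR adjusted p = 0.070).

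Of the large-subunit proteins listed as specific to the mitoribosome, 16 of the 20 tested were lower, with a median of −0.36. Mrpl54 (chr10:81264713-81266934) had 68.7, 70.9 and 62.5 CPM in the 18 mo libraries and 44.0, 38.6 and 42.4 CPM in the 21 mo libraries. The 21 mo libraries were close to each other and all below the 18 mo libraries, at −0.69 ± 0.13 (edgeR adjusted p = 0.063), the smallest p of any member. Mrpl51 had 97.2, 102 and 98.1 CPM against 72.6, 64.2 and 55.7 CPM in the same groups, with a log2 fold change of −0.63 ± 0.13 (edgeR adjusted p = 0.063). It overlaps Mir3098 on the same strand. Mrpl58, a peptidyl-tRNA hydrolase that releases chains from stalled mitoribosomes, had a mean of 59.3 ± 1.10 CPM and 50.2 ± 3.88 CPM (SD, n = 3), a smaller difference of −0.24 ± 0.11 (edgeR adjusted p = 0.21).

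In the small subunit, 14 of the 16 proteins inherited from bacteria were lower, with a median of −0.33. Of the 16, 10 were lower at an unadjusted p under 0.05 in edgeR, against 12% of all genes tested. That count was 12 of 30 and 9 of 20 in the inherited and specific large-subunit lists, and 2 of 10 in the specific small-subunit list. Mrps12, a protein of the decoding centre (chr7:28739641-28741820), had 49.4, 52.4 and 52.0 CPM in the 18 mo libraries and 38.7, 29.4 and 29.2 CPM in the 21 mo libraries. The difference of −0.66 ± 0.14 exceeded the spread of either group, at an edgeR adjusted p of 0.063. Mrps7, a protein of the head of the small subunit (chr11:115603925-115608036), had 111, 119 and 108 CPM against 79.9, 62.4 and 49.3 CPM. Its 21 mo values were widely spread but all below the 18 mo values, at −0.82 ± 0.18 (edgeR adjusted p = 0.063). Mrps21 (chr3:95862634-95871519) had means of 106 ± 7.72 and 68.1 ± 11.8 CPM (SD, n = 3) and a log2 fold change of −0.64 ± 0.15 (edgeR adjusted p = 0.069). Mrps28, which overlaps Gm15466 on the same strand, had means of 32.2 ± 4.24 and 18.8 ± 5.08 CPM and a log2 fold change of −0.78 ± 0.19 (edgeR adjusted p = 0.075).

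Of the 10 small-subunit genes listed as specific to the mitoribosome, 9 were lower, with a median of −0.16. Mrps18b, a relative of bacterial S18 that was counted in this list, was the other one. Mrps26 was the exception in size (chr2:130563742-130568695), with 73.6, 76.5 and 73.3 CPM in the 18 mo libraries and 47.2, 39.2 and 50.8 CPM in the 21 mo libraries. The groups were well separated, at −0.70 ± 0.14 (edgeR adjusted p = 0.063). Mrps36 bears the name of a subunit but is a component of the 2-oxoglutarate dehydrogenase complex of the citric acid cycle. It had 46.8, 56.6 and 51.9 CPM in the 18 mo libraries and 40.8, 30.5 and 23.2 CPM in the 21 mo libraries. These did not overlap, at −0.72 ± 0.19 (edgeR adjusted p = 0.081).

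**Figure D3:**
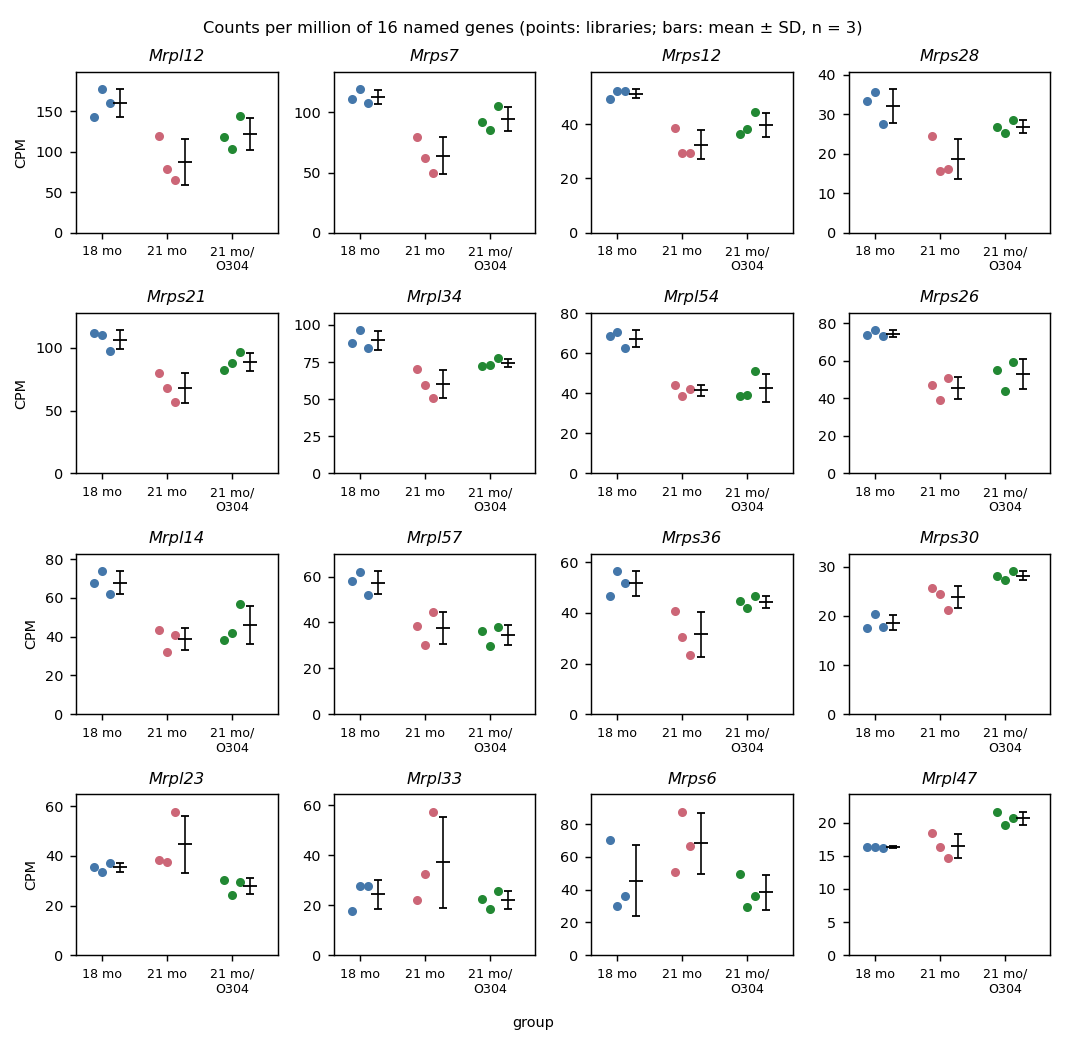
CPM of 16 members in the 3 groups, with a point for each library and the mean ± SD (n = 3) beside it, on axes that start at 0. Mrpl12 has a mean of 160 CPM in 18 mo, 87.1 CPM in 21 mo and 122 CPM in 21 mo/O304 mice, whereas Mrpl54 stands at 41.7 and 42.9 CPM in the older groups.

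The members with higher values in 21 mo mice were few. Mrps30, a protein now placed in the large subunit despite its name (chr13:118378381-118387252), had 17.6, 20.4 and 17.8 CPM in the 18 mo libraries, 25.6, 24.5 and 21.3 CPM in the 21 mo libraries and 28.2, 27.2 and 29.2 CPM in the 21 mo/O304 libraries. The 3 groups did not overlap and stood in that order. Its log2 fold change in 21 mo against 18 mo was 0.35 ± 0.12 (edgeR adjusted p = 0.12). Mrpl30, a large-subunit protein shared with bacteria, had 68.9, 71.3 and 63.5 CPM against 82.0, 73.5 and 90.5 CPM, a difference of 0.27 ± 0.12 (edgeR adjusted p = 0.18). Mrpl23, which lies by the exit of the nascent chain, had 35.7, 33.6 and 37.1 CPM against 38.4, 37.7 and 57.9 CPM, at 0.34 ± 0.18 (edgeR adjusted p = 0.26). Its separation from the 18 mo group was slight except in 21 mo replicate 3, and without that library its log2 fold change was 0.086 and that of Mrpl30 was 0.18. With voom the value of Mrpl23 was 0.084 and that of Mrpl30 was 0.15. Mrpl33 had 22.0, 32.3 and 57.4 CPM in the 21 mo libraries, also highest in replicate 3, and overlapped the 18 mo range of 17.6 to 27.7 CPM. Without 21 mo replicate 3 the log2 fold change of Mrpl33 was 0.14 in place of 0.62. Its annotation overlaps Gm43809 on the same strand.

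The 3 relatives of bacterial S18 were Mrps18a and Mrps18b, counted here among the proteins specific to the mitoribosome, and Mrps18c. Mrps18a, placed in the large subunit, had means of 59.0 ± 6.13 CPM in 18 mo mice and 45.7 ± 2.29 CPM in 21 mo mice (SD, n = 3), at −0.37 ± 0.12 (edgeR adjusted p = 0.12). Mrps18b had means of 15.2 ± 1.78 and 15.5 ± 1.52 CPM, and its log2 fold change of 0.02 ± 0.14 took either sign across the alternatives tried. Mrps18c, which overlaps Gm43511 on the same strand, had means of 12.6 ± 3.18 and 15.9 ± 1.52 CPM, at 0.34 ± 0.22 (edgeR adjusted p = 0.35). This value of Mrps18c was 0.15 without 18 mo replicate 1 and 0.54 without 18 mo replicate 3. Differences among the 3 were not tested.

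The second comparison asked what differed between mice given O304 and mice given saline at the same age. Most members had a higher fitted level in 21 mo/O304 mice, with 65 higher, 12 lower and a median of 0.21 on the log2 scale, against −0.02 over all genes tested. Without 21 mo/O304 replicate 3 the median was 0.13. As a share of the library total, the summed members overlapped between the groups. They held 0.336%, 0.347% and 0.355% of counts in the 21 mo libraries and 0.342%, 0.326% and 0.362% in the 21 mo/O304 libraries. In edgeR's test 0 members passed an adjusted p of 0.05, as did 0% of all genes in either direction, and the smallest adjusted p of a member was 0.17. At an unadjusted p under 0.05 there were 14 members higher and 2 lower in edgeR, against 8.27% and 12.4% of all genes tested, that is 18.2% and 2.60% of the members. In 16 members every 21 mo/O304 library lay above every 21 mo library and in 2 every one lay below, where all genes gave 10.8% and 10.5%. DESeq2 called 1 member, which was lower, with 6.07% of its genes called, limma-voom with sample weights 36 higher and 3 lower with 41.1% of all genes called, and limma-trend on FPKM 0.

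This count rested on few libraries. The number of members higher at an unadjusted p under 0.05 was 3 without 21 mo replicate 2, 3 without 21 mo replicate 3, 2 without 21 mo/O304 replicate 1 and 2 without 21 mo/O304 replicate 3, where the share of all genes was 5.07%, 7.12%, 5.13% and 4.21%. Without 21 mo/O304 replicate 2 it was 9, with 5.2% of all genes. Without 18 mo replicate 3, which enters through the shared estimate of the spread, it was 7, with 5.88%, and over the 6 libraries compared alone it was 5, with 4.99%. Without 21 mo replicate 1 it was 30, with 18.1% of all genes, and 18 members then passed the adjusted threshold, with 23.1% of all genes. The number of members with every 21 mo/O304 library above the 21 mo group was 18 without 21 mo replicate 3, with 14.1% of all genes, and 48 without 21 mo replicate 1, with 26% of all genes. The proximal tubule markers of 21 mo replicates 2 and 3 were below those of all 21 mo/O304 libraries, and their part in this difference was not tested.

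Mrps7 had 92.1, 85.5 and 105 CPM in the 21 mo/O304 libraries, all above the 79.9, 62.4 and 49.3 CPM of the 21 mo libraries. Its log2 fold change was 0.56 ± 0.18 (edgeR adjusted p = 0.18), the largest positive value of any member in this comparison. Mrps28 had 26.9, 25.2 and 28.5 CPM against 24.6, 15.6 and 16.1 CPM. Its groups were separated by a narrow margin at 21 mo replicate 1, with a log2 fold change of 0.52 ± 0.19 (edgeR adjusted p = 0.20). Mrps2, a small-subunit protein shared with bacteria (chr2:28468066-28471178), had 55.9, 51.0 and 49.3 CPM against 45.8, 38.1 and 26.8 CPM, at 0.50 ± 0.18 (edgeR adjusted p = 0.19). Its 21 mo/O304 values also lay above all 18 mo values, which were 41.7, 47.0 and 43.2 CPM. Mrps36 had 44.5, 41.8 and 46.7 CPM against 40.8, 30.5 and 23.2 CPM, at 0.49 ± 0.19 (edgeR adjusted p = 0.20), and Mrpl12 a log2 fold change of 0.48 ± 0.23 with overlapping groups (edgeR adjusted p = 0.26). Mrps21 and Mrpl9, both shared with bacteria, had log2 fold changes of 0.38 ± 0.15 and 0.32 ± 0.12 without overlap of the groups (edgeR adjusted p = 0.20 for each). Without 21 mo replicate 3 the log2 fold change was 0.32 for Mrps2, 0.32 for Mrps36 and 0.32 for Mrpl12, and without 21 mo replicate 1 it was 0.76 for Mrpl12.

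Few members had lower values under O304. This comparison shares the 21 mo libraries with the first, so the values of both are given side by side. Mrpl23 had 30.2, 24.3 and 29.4 CPM in the 21 mo/O304 libraries, below every 21 mo and every 18 mo library. Its log2 fold change against 21 mo was −0.68 ± 0.18 (edgeR adjusted p = 0.17), and −0.44 without 21 mo replicate 3. Mrps6, a small-subunit protein shared with bacteria whose gene spans Slc5a3 on the same strand (chr16:92058270-92112227), had 70.5, 30.1 and 35.8 CPM in the 18 mo libraries, 50.6, 87.6 and 66.4 CPM in the 21 mo libraries and 49.8, 29.2 and 35.8 CPM in the 21 mo/O304 libraries. The 18 mo values ran from 30.1 to 70.5 CPM and overlapped both other groups, and the difference of 21 mo/O304 from 21 mo was −0.83 ± 0.35 (edgeR adjusted p = 0.23). Mrpl33 and Mrpl52, a large-subunit protein found only in mitochondria, had log2 fold changes of −0.75 ± 0.33 and −0.36 ± 0.20 with overlapping groups, and in both the highest 21 mo value was that of replicate 3, at 57.4 and 70.9 CPM. Without that library these log2 fold changes were −0.28 and −0.04.

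The third comparison set 21 mo/O304 mice against 18 mo mice, whose summed proximal tubule markers overlapped. The collecting duct markers summed to 544, 310 and 296 CPM in the 18 mo libraries and to 283, 179 and 212 CPM in the 21 mo/O304 libraries. These sums are scaled by the library total alone. On the log2 scale relative to the 18 mo mean, with the scaling used for single genes, their medians overlapped. They were 0.39, −0.07 and −0.32 in the 18 mo libraries and −0.24, −0.98 and −0.58 in the 21 mo/O304 libraries. The adipocyte markers were high in 21 mo/O304 replicates 1 and 3, and the part of either list was not tested. Here 49 members were lower and 28 higher, and the median was −0.16 on the log2 scale, against 0.00 over all genes. In edgeR's test 0 members passed an adjusted p of 0.05, with 0% of all genes passing in either direction, and the smallest adjusted p was 0.32. At an unadjusted p under 0.05 there were 14 members lower and 2 higher in edgeR, against 5.33% and 4.33% of all genes. In 32 members every 21 mo/O304 library lay below every 18 mo library and in 5 above, where all genes gave 13.3% and 13.2%. DESeq2 called 2 lower and 1 higher with 0.869% of its genes called, limma-voom with sample weights 5 lower and 1 higher with 2.61%, and limma-trend on FPKM 0. The count of 14 was 6 without 18 mo replicate 2, with 3.87% of all genes, and 19 without 21 mo replicate 1 or replicate 3, with 6.58% and 8.18%. It was 9 without 21 mo/O304 replicate 1, 8 without 18 mo replicate 3 and 7 without 21 mo/O304 replicate 2, with 4.36%, 3.53% and 2.97% of all genes. Over the 6 libraries compared alone it was 24, with 10.9%.

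**Figure D4:**
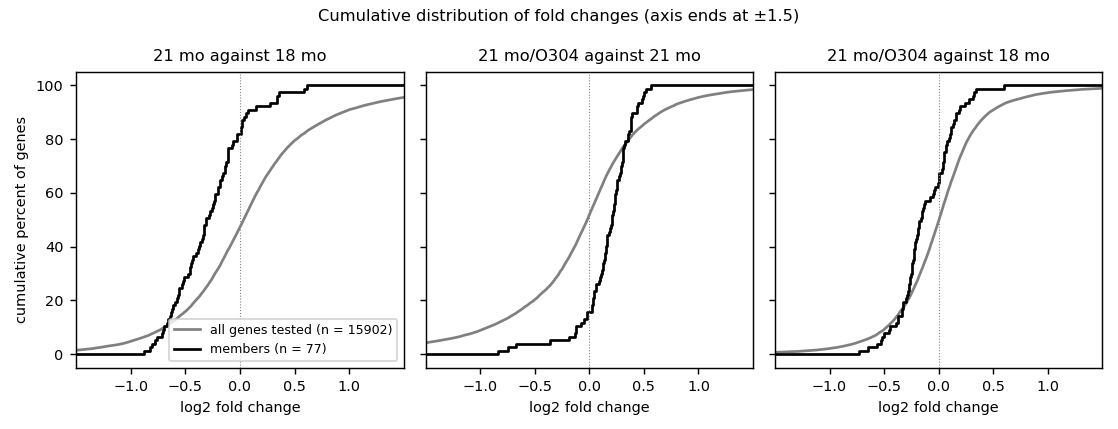
Cumulative percent of genes (vertical axis) by log2 fold change (horizontal axis) for the 77 members in black and the 15902 genes tested in grey, in each comparison. The members' curve lies left of that of all genes in 21 mo against 18 mo, with a median of −0.31, and over most of its range right of it in 21 mo/O304 against 21 mo, with a median of 0.21.

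Mrpl57, a large-subunit protein found only in mitochondria (chr14:57826234-57829296), had 58.2, 62.1 and 51.9 CPM in the 18 mo libraries, 38.3, 30.2 and 44.4 CPM in the 21 mo libraries and 36.3, 29.6 and 37.8 CPM in the 21 mo/O304 libraries. Both older groups lay below the 18 mo group and overlapped each other. Its log2 fold change in 21 mo/O304 against 18 mo was −0.73 ± 0.16 (edgeR adjusted p = 0.32). Mrpl54 had 38.7, 39.1 and 51.0 CPM in the 21 mo/O304 libraries, all below the 18 mo libraries, at −0.65 ± 0.13 (edgeR adjusted p = 0.32). Mrps11, a small-subunit protein shared with bacteria, had a mean of 29.7 ± 4.07 CPM in 18 mo mice and 20.7 ± 1.90 CPM in 21 mo/O304 mice (SD, n = 3), at −0.52 ± 0.15 (edgeR adjusted p = 0.34). Mrps26 stood at −0.50 ± 0.14 (edgeR adjusted p = 0.34) and Mrpl14 at −0.57 ± 0.17 (edgeR adjusted p = 0.36), both with no overlap of the groups.

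On the higher side, Mrps30 had the largest value of this comparison, 0.60 ± 0.12 (edgeR adjusted p = 0.32). Mrpl47, a large-subunit protein shared with bacteria, had 16.4, 16.4 and 16.1 CPM in the 18 mo libraries, 18.5, 16.3 and 14.7 CPM in the 21 mo libraries and 21.7, 19.7 and 20.7 CPM in the 21 mo/O304 libraries. All 21 mo/O304 values exceeded those of both other groups, by a log2 fold change of 0.34 ± 0.13 over 18 mo (edgeR adjusted p = 0.46). Mrps33, found only in mitochondria, had 35.2, 31.7 and 34.3 CPM in the 21 mo/O304 libraries, also above both other groups, at 0.28 ± 0.13 over 18 mo (edgeR adjusted p = 0.53). Mrpl35 had 38.8, 34.2 and 40.0 CPM, overlapping the 18 mo range of 24.2 to 36.7 CPM. Mrps10, the lowest in level per length among the members with counts, had means of 30.4 ± 2.90 CPM in 18 mo and 25.9 ± 0.64 CPM in 21 mo mice (SD, n = 3) and values of 25.5, 22.9 and 26.4 CPM in the 21 mo/O304 libraries, with both older groups below all 18 mo libraries. For single genes compared as 3 against 3 mice, an exact two-sided permutation test cannot give a p below 0.1, which is the value of every member without overlap.

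In both comparisons with 18 mo mice, the members with higher levels per length tended to have the lower fold changes, and in 21 mo/O304 against 21 mo the higher ones. Over the 77 members, Spearman's rho between the mean FPKM and the log2 fold change was −0.60 in 21 mo against 18 mo, 0.31 in 21 mo/O304 against 21 mo and −0.49 in 21 mo/O304 against 18 mo, where over all genes tested it was −0.22, 0.21 and −0.02. With the annotated transcript length, rho over the members was 0.47, −0.17 and 0.43 in the same order, against 0.10, −0.06 and 0.07 over all genes. These are descriptions across genes measured in the same libraries, the level enters both quantities, and FPKM itself contains the length. The 37 members that overlap no other annotated gene had a median log2 fold change of −0.33 in 21 mo against 18 mo, the 28 that overlap a gene on the other strand alone −0.22, and the 12 tested members with a gene on the same strand −0.40. The largest group on a single chromosome was on chromosome 11, where 10 of 11 members were lower, with a median of −0.47.

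**Figure D5:**
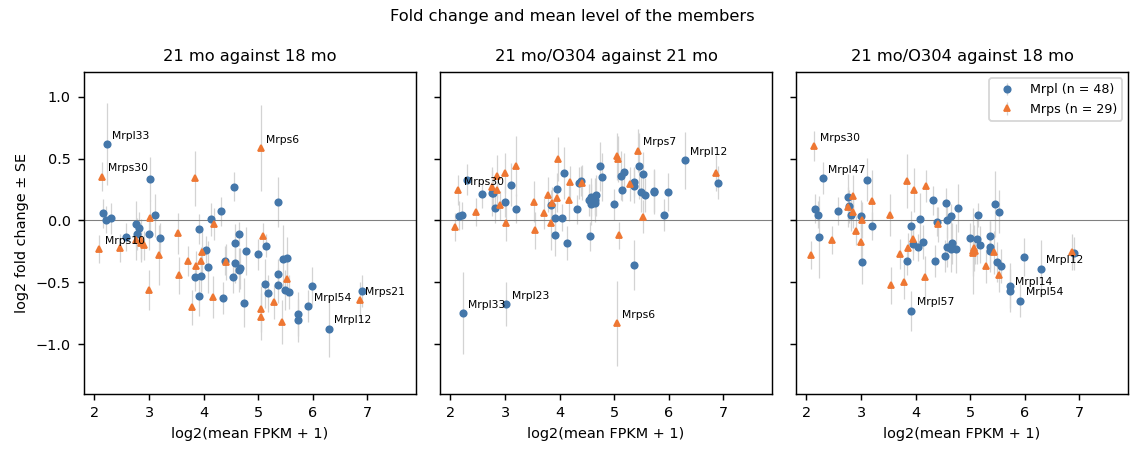
Log2 fold change ± SE of each member (vertical axis) against log2(mean FPKM + 1) over the 9 libraries (horizontal axis), with Mrpl genes as circles and Mrps genes as triangles. In 21 mo against 18 mo, at the low end of the level, Mrps30 lies above 0 and Mrps10 at −0.23. At high levels Mrpl12 and Mrps21 lie below −0.5, with rho −0.60 over all members tested.

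The members varied together in part. The median correlation between pairs of members over the 9 libraries was 0.51, a description that includes the differences between the groups. Of the members, 57 had a correlation over 0.5 with the median of the others and 9 had one below 0. The member most like the median of the others was Mrps14, followed by Mrpl28 and Mrpl12 (0.98 each), and the least alike were Mrps6 (−0.63), Mrpl33 (−0.54) and Mrpl30 (−0.50). In summed counts, the genes named Mrpl held between 1.99 and 2.12 times the counts of those named Mrps in every library, with no separation of the groups. This ratio goes by name, so Mrps30, Mrps18a and Mrps36 were counted with Mrps. The median within-group SD of log2 CPM over the members was 0.12 in 18 mo, 0.21 in 21 mo and 0.12 in 21 mo/O304 mice, each below that of all genes tested at 0.18, 0.37 and 0.20.

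Other genes of mitochondrial translation lay on the same side as the members in the median of the first 2 comparisons. The 15 mitochondrial translation factors had median log2 fold changes of −0.42 in 21 mo against 18 mo, 0.39 in 21 mo/O304 against 21 mo and 0.04 in 21 mo/O304 against 18 mo. All 15 were higher in 21 mo/O304 than in 21 mo mice in fitted level, as were 7668 of the 15902 genes tested. In edgeR 7 of them had an unadjusted p under 0.05, against 8.27% of all genes, and 0 an adjusted p under 0.05. By library their median relative to the 18 mo mean was −0.04, −0.49 and −0.69 in 21 mo replicates 1, 2 and 3, so that replicate 1 held little of the difference. Tsfm, the elongation factor that reloads mitochondrial EF-Tu, had 42.2, 48.6 and 41.0 CPM in the 18 mo libraries, 30.9, 24.7 and 22.7 CPM in the 21 mo libraries and 44.5, 34.3 and 44.5 CPM in the 21 mo/O304 libraries. The 21 mo values were below all others. The medians were −0.21, 0.27 and 0.02 for 25 mitoribosome assembly factors and −0.33, 0.36 and 0.01 for 17 mitochondrial aminoacyl-tRNA synthetases. A further list of 12 genes, outside translation, had −0.19, 0.40 and 0.09. It held genes that transcribe or copy mitochondrial DNA, such as Polrmt and Twnk, and regulators of nuclear genes, such as Esrra and Ppargc1b. In 21 mo replicate 1 these 3 lists stood at −0.04, 0.02 and 0.03 relative to the 18 mo mean, in the order given. In replicate 3 they stood at −0.35, −0.68 and −0.64. The 5 mitoribosome proteins with other names had −0.18, 0.15 and −0.04. Beside these, the members had −0.31, 0.21 and −0.16 in the same order, and differences between lists were not tested.

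The RNAs and products of the mitoribosome were read beside its proteins. The rRNA mt-Rnr2 had 852, 927 and 1090 CPM in the 18 mo libraries, 2038, 1654 and 983 CPM in the 21 mo libraries and 1488, 1922 and 1896 CPM in the 21 mo/O304 libraries. Its values in 21 mo/O304 mice were above all 18 mo values, while 21 mo replicate 3 lay within them. The log2 fold changes of mt-Rnr2 and mt-Rnr1 against 18 mo were 0.70 ± 0.30 and 0.45 ± 0.26 in 21 mo mice (edgeR adjusted p = 0.18 and 0.30) and 0.89 ± 0.30 and 0.71 ± 0.27 in 21 mo/O304 mice (edgeR adjusted p = 0.41 and 0.46). How ribosomal RNA was removed before sequencing is not given in the sources used here, which limits the reading of these values. The 13 protein genes of the mitochondrial chromosome had median log2 fold changes of −0.33, 0.55 and 0.21 in the 3 comparisons. By library their median relative to the 18 mo mean was 0.21, −0.28 and −1.24 in 21 mo replicates 1, 2 and 3. Replicate 3 thus held most of the difference, and replicate 1 lay on the other side. The 80 tested nuclear subunits of complexes I to V had −0.54, 0.35 and −0.19 in the 3 comparisons. Their medians in 21 mo replicates 1, 2 and 3 were −0.20, −0.62 and −0.90.

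The proteins of the cytosolic ribosome stood on the other side. Their 78 tested genes had a median log2 fold change of 0.62 in 21 mo against 18 mo, 74 of them higher, of −0.62 in 21 mo/O304 against 21 mo, with 77 lower, and of 0.03 in 21 mo/O304 against 18 mo. By library their median was 0.02, 0.27 and 1.27 above the 18 mo mean in 21 mo replicates 1, 2 and 3, so that replicate 3 held most of the difference. Counts of cytosolic ribosomal protein genes per count of members, a ratio within a library that no scaling changes, were 6.56, 5.58 and 6.41 in the 18 mo libraries, 7.25, 9.91 and 20.7 in the 21 mo libraries and 6.71, 7.17 and 7.08 in the 21 mo/O304 libraries. Both older groups lay above the 18 mo group in this ratio, the 21 mo/O304 group narrowly. Counts of the complex I to V subunits per count of members were 6.70, 6.20 and 6.24, then 6.50, 5.28 and 4.55, then 6.36, 6.25 and 6.26 in the same order. In 21 mo replicates 2 and 3 this ratio was below all other libraries.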

How the data were processed

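The authors sequenced kidney RNA of 9 mice (NEBNext Ultra RNA kit) and, per the labels, used HISAT2 2.0.5, featureCounts 1.5.0-p3, DESeq2 1.20.0 and GRCm38. Strand setting and treatment of multimapped reads are not given in the sources used here. The deposited table holds raw whole-number counts per gene and FPKM values computed by the authors from counts and gene length. Its columns of the authors' own comparisons (group means, fold changes, p-values) were not used. Groups were taken from the sample labels, and each replicate is 1 mouse. Members and gene lists were chosen with earlier results of these data known.

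Counts were analysed with edgeR 4.0.16 in R 4.3.3 (TMM, filterByExpr with a minimum count of 10, 15902 genes, all 9 libraries, 3 group means, quasi-likelihood test, Benjamini-Hochberg adjustment over all genes, threshold 0.05). CPM values of single genes use TMM-scaled library sizes, and 1 count was worth between 0.0458 and 0.0669 CPM. Sums of cell type markers use the total count of each library without the TMM factors, which ran from 0.928 to 1.20. The fit was tested on simulated data. Alternatives were DESeq2 1.42.0, limma 3.58.1 (voom with sample weights, and trend on log2(FPKM + 1), keeping a mean of 0.5 FPKM or more), other scalings and filters, the replicate block, and each library left out. Named members were those with the smallest p per comparison and direction (8 lower and 4 higher, 6 higher and 4 lower, and 4 in each direction), the 3 highest and 3 lowest in mean FPKM, any that failed the filter, and 9 fixed by role. All 78 symbols matched the RefSeq gene table of GRCm38.p6. Sequences were not used here.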

Additional observations from a re-analysis of the deposited data

How the results depend on the processing

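No fit to counts scaled by the library total alone. The members' summed share of that total was 0.399%, 0.412% and 0.388% in the 18 mo libraries. It was 0.336%, 0.347% and 0.355% in the 21 mo libraries and 0.342%, 0.326% and 0.362% in the 21 mo/O304 libraries. In that share the 21 mo and 21 mo/O304 groups overlapped, and both lay below the 18 mo group. The median log2 fold change of the members kept its sign under all 19 alternatives in each comparison. It ranged from −0.39 to −0.23 in 21 mo against 18 mo, from 0.13 to 0.30 in 21 mo/O304 against 21 mo and from −0.19 to −0.11 in 21 mo/O304 against 18 mo. The counts of members past the threshold, 0 in each comparison with edgeR, did not hold. For 21 mo against 18 mo the count was 26 with DESeq2, 50 with voom, 4 when every gene with a count was tested, where 2.04% of all genes passed, and between 0 and 32 when a library was left out (32 without 21 mo replicate 1, and 1 without replicate 3, where 0.806% of all genes passed). For 21 mo/O304 against 21 mo it was 1 with DESeq2, 39 with voom and between 0 and 18 with a library left out (18 without 21 mo replicate 1). For 21 mo/O304 against 18 mo it was 3 with DESeq2 and 6 with voom. The voom weights were 0.22, 9.11 and 0.13 for 21 mo replicates 1, 2 and 3, so that this fit leaned on 1 mouse. The members whose 21 mo/O304 libraries all exceeded the 21 mo libraries numbered between 18 and 48 without 21 mo replicate 3 or 1, an alternative chosen after seeing the data. The cause of these changes was not tested.

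Among the 29 named members tested, in 3 comparisons under 19 alternatives, 35 of 1653 log2 fold changes had the opposite sign, and 84 passed the threshold where the edgeR fit did not. With upper-quartile factors the opposite signs were 0.0077 for Mrps33 in 21 mo against 18 mo, −0.0016 for Mrpl58 in 21 mo/O304 against 21 mo and 0.012 for Mrpl9 in 21 mo/O304 against 18 mo. With voom they were −0.050 for Mrpl52 and −0.10 for Mrps18b in 21 mo against 18 mo, and 0.010 for Mrpl30, 0.16 for Mrpl57, 0.10 for Mrps11 and 0.10 for Mrps18b in 21 mo/O304 against 21 mo. Over the 6 libraries compared alone, Mrps18b was −0.0067 in 21 mo/O304 against 18 mo. With a library left out, the log2 fold change in 21 mo against 18 mo lay between −0.10 and 0.21 for Mrpl35, −0.066 and 0.10 for Mrps18b, −0.10 and 0.047 for Mrps33, −0.056 and 0.075 for Mrpl47, and −0.18 and 0.32 for Mrpl52. In 21 mo/O304 against 21 mo it lay between −0.081 and 0.051 for Mrps18b, −0.11 and 0.094 for Mrpl54, −0.074 and 0.082 for Mrpl58, −0.25 and 0.023 for Mrpl57, and −0.17 and 0.10 for Mrps18c. In 21 mo/O304 against 18 mo it lay between −0.48 and 0.22 for Mrps6, −0.080 and 0.090 for Mrps18b, and −0.090 and 0.056 for Mrpl9.

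The groups share replicate numbers, and the deviations of same-numbered libraries were weakly correlated (correlations of −0.13 to 0.17). Libraries of different numbers were not compared in this way, so the check cannot decide whether the numbers pair the mice. With the replicate block, 0 members passed the threshold in each comparison and the medians were −0.32, 0.21 and −0.16. Mrpl53, listed at 0 in every library, lies inside Gm42688 on the same strand, so its 0 gives no level.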
